A study of Homo sapiens with 16 samples.

Results

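The 10 genes described here are the CNC transcription factors NFE2L1 (NRF1), NFE2L2 (NRF2) and NFE2L3 (NRF3), the NRF2 inhibitor KEAP1, and 6 textbook NRF2 targets, namely HMOX1, NQO1, GCLC, GCLM, TXNRD1 and SRXN1. They were chosen by symbol out of 58735 genes in the count tables, with the siYES1 against siNS results of both lines and their difference already known, so these contrasts are given as a description of the genes and not as a test of them. All 10 were found, and all 10 passed the filter on low counts in every comparison. Poly-T selected mRNA was sequenced from SUM159PT and MDA-MB-231, both triple-negative breast cancer cell lines, 48 h after lipid (Lipofectamine) transfection of an siRNA against YES1 (siYES1), a SRC-family tyrosine kinase, or of a non-silencing siRNA against firefly luciferase (siNS). The 4 groups were SUM159PT with siYES1, SUM159PT with siNS, MDA-MB-231 with siYES1 and MDA-MB-231 with siNS, all with the genotype label WT, and each held 4 libraries. The submitters call the replicates technical, so each p-value measures only the spread between such libraries of one experiment. No untransfected cells were compared here.

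NRF2 is a short-lived transcription factor. KEAP1 presents it to a CUL3 ubiquitin ligase, and oxidants or electrophiles that modify KEAP1 let NRF2 accumulate, pair with a small MAF protein and bind antioxidant response elements (AREs). Its protein is set largely by this turnover, which mRNA counts do not measure. NRF1 is held in the endoplasmic reticulum membrane until it is extracted and cut, and it drives proteasome subunit genes when the proteasome is impaired, while NRF3 is the least studied of the 3 and is handled much like NRF1. BACH1 competes with NRF2 for AREs and is released from them by heme.

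In GENCODE release 29 on GRCh38, NFE2L1 lies on chromosome 17 at 48048329-48061487 (plus strand), NFE2L2 on chromosome 2 at 177227595-177392697 (minus) and NFE2L3 on chromosome 7 at 26152240-26187125 (plus). KEAP1 lies on chromosome 19 at 10486120-10503741 (minus), HMOX1 on chromosome 22 at 35380361-35394214 (plus) and NQO1 on chromosome 16 at 69706996-69726951 (minus). GCLC lies on chromosome 6 at 53497341-53616970 (minus), GCLM on chromosome 1 at 93885205-93909456 (minus), TXNRD1 on chromosome 12 at 104215779-104350305 (plus) and SRXN1 on chromosome 20 at 646615-653370 (minus). The values are counts over exons of each gene. Exons of NFE2L2 overlap AGPS and AC079305.1 on the opposite strand and AC019080.1 on the same strand. Exons of GCLC overlap AL033397.1 and AL033397.2, those of SRXN1 overlap AL121758.1, those of NFE2L1 overlap AC004477.2 and those of NQO1 overlap AC092115.2. No source used here gives the strand setting of the counting, and reads of these overlaps cannot be told apart. NFE2L3 has 1 pseudogene by name, which may share reads with it.

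Promoter windows from RefSeq (GRCh38.p14, 250 bases before to 50 after a start) were found for 9 of the 10 genes, all but HMOX1. The core of the ARE, TGACNNNGC, was searched on both strands. TXNRD1, GCLM and KEAP1 held it in a window, the 9 genes having 13 windows. Of 35116 single windows in the genome, 13.3% held it. Bases outside the windows were not searched. The windows of TXNRD1 at both of its starts and of GCLM are printed because they hold the word, and that of NFE2L3 because its response to siYES1 differed most between the lines. Capitals mark the word, on either strand.
TXNRD1, upstream start, chr12:104215529-104215828, plus strand: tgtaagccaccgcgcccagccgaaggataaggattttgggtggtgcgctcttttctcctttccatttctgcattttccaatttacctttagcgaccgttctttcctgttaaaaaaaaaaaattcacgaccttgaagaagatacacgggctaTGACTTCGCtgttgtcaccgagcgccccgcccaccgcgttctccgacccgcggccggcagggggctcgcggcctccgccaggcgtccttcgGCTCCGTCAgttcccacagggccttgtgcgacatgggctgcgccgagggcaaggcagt
TXNRD1, downstream start, chr12:104286782-104287081, plus strand: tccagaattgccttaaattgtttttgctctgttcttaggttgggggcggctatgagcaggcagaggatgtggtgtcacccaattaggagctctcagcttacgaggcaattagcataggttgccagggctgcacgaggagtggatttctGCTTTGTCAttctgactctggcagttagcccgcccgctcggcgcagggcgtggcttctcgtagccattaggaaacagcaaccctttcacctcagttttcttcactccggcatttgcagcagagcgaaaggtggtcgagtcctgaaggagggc
GCLM, chr1:93909381-93909680, minus strand: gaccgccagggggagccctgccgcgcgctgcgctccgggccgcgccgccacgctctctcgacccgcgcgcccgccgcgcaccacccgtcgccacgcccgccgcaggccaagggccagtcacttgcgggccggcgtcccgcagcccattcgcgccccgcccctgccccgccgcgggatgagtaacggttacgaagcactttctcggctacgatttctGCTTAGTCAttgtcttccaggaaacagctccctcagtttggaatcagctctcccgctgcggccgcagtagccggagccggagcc
NFE2L3, chr7:26151948-26152247, plus strand: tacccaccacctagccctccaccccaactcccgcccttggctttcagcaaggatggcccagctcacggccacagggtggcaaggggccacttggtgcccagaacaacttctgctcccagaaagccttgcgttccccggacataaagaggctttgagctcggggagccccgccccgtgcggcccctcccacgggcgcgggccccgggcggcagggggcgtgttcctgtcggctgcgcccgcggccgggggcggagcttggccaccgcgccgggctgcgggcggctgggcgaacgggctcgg
Counted from the start as 1, the TXNRD1 words span -99 to -91 and -8 to 1 at the upstream start, and -102 to -94 at the downstream start. The GCLM word TGACTAAGC, on the opposite strand from the gene, spans -34 to -26. The same word on the opposite strand lies at -31 to -23 of a KEAP1 window (chr19:10502722-10503021), beside TGACACGGC at -54 to -46. The AP-1 word TGANTCA, present in 7.71% of windows, was in none of these 13 windows. A match is a description of letters and not of binding.

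YES1 mRNA was lower in the siYES1 libraries of both lines. It measured 17.2 ± 1.80 CPM in siYES1 and 134 ± 23.8 CPM in siNS libraries of SUM159PT, and 13.8 ± 0.82 CPM in siYES1 and 63.2 ± 6.16 CPM in siNS libraries of MDA-MB-231 (SD, n = 4 each). The groups of libraries did not overlap in either line. In bulk libraries such as these, fewer cells expressing a gene and less RNA per cell cannot be told apart. Here and below, CPM is the count of a gene relative to the library's size, with library sizes scaled by TMM (trimmed mean of M-values) within a line. Assigned counts per library were 15680459 to 23451253 in SUM159PT and 15863961 to 21158617 in MDA-MB-231. VIM, a mesenchymal marker, stood at 968 to 2324 CPM in SUM159PT and 413 to 881 CPM in MDA-MB-231, while CDH1, ESR1 and PGR stayed at or below 1.34 CPM in every library. EPCAM was at most 0.825 CPM in SUM159PT but 10.7 to 28.8 CPM in MDA-MB-231. Replicate 1 of the SUM159PT siNS group stood farthest from its group: its genes differed from the mean of the other 3 by a median of 0.297 (log2), against 0.0897 to 0.215 in the other 15 libraries. Values without it are given for some genes and lists, and not for all that it may affect.

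In SUM159PT, 5 of the 10 genes were called higher with siYES1, namely HMOX1, TXNRD1, SRXN1, NQO1 and NFE2L2, and NFE2L3 was called lower. The call was an adjusted p under 0.05 in edgeR's quasi-likelihood test over all 14469 genes tested, of which 17.7% were called higher and 19.0% lower. The libraries of the siYES1 and siNS groups were fully separate in 6 of the 10 genes, and in 36.8% of all genes. The median log2 fold change was 0.292 over the 10 genes and -0.029 over all genes. The genes were chosen with this contrast known, so nothing is read from these shares.

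NFE2L3 was the scarcest of the 3 factors in SUM159PT. It measured 5.78, 5.11, 3.97 and 3.26 CPM in the siYES1 libraries, against 7.62, 7.87, 6.74 and 10.98 CPM in the siNS libraries. Every siYES1 library lay below every siNS library, and the log2 fold change was -0.88 ± 0.23 (SE, also below). The siYES1 values rest on 72 to 108 counts and the siNS values on 133 to 205. NFE2L2 measured 139, 143, 132 and 139 CPM in siYES1 libraries, against 92.2, 129.99, 123 and 111 CPM in siNS libraries. The lowest siYES1 library lay just above the highest siNS library, and the log2 fold change was 0.28 ± 0.10. In edgeR's test this call ended when siNS replicate 4 or any siYES1 library was left out (adjusted p from 0.0582 to 0.0995), and without siNS replicate 1 the value was 0.18, still called.

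NFE2L1 measured 384, 377, 321 and 364 CPM in siYES1 libraries, against 218, 336, 314 and 301 CPM in siNS libraries of SUM159PT. The groups overlapped, and the value of 0.31 ± 0.12 was not called. Without siNS replicate 1, the lowest library, it was 0.18 and was called, and it was also called without siNS replicate 2 or siYES1 replicate 3. DESeq2 (adjusted p = 0.0448), limma-voom (0.0414), edgeR with no filter on low counts (0.00217) and the joint fit (0.00737) called it too, at log2 values of 0.31 to 0.35. KEAP1, the adaptor that targets NRF2 for destruction, measured 37.4, 38.2, 38.2 and 45.7 CPM in siYES1 libraries, against 64.2, 33.4, 42.0 and 41.0 CPM in siNS libraries. The siNS range enclosed the siYES1 range. Its log2 fold change was -0.18 ± 0.17, not called, and 0.03 without siNS replicate 1, which was the highest library.

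HMOX1, the inducible heme oxygenase that breaks heme down to biliverdin, iron and carbon monoxide, had the largest log2 increase of the 6 targets in SUM159PT. It measured 756, 689, 584 and 623 CPM in siYES1 libraries, against 241, 439.8, 393 and 344 CPM in siNS libraries, a log2 fold change of 0.90 ± 0.15. All siYES1 libraries lay above all siNS libraries. Without siNS replicate 1, the lowest, the value was 0.75 and the call stood. TXNRD1, the cytosolic thioredoxin reductase, had the smallest spread of the changed targets. It measured 1503, 1446, 1534 and 1489 CPM in siYES1 libraries, against 878, 948, 910.4 and 924 CPM in siNS libraries, a log2 fold change of 0.71 ± 0.06. The gap between the groups was far wider than either group's range.

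SRXN1, sulfiredoxin, which repairs overoxidized peroxiredoxins, measured 23.9, 22.2, 24.0 and 31.5 CPM in siYES1 libraries, against 18.3, 17.8, 16.7 and 15.3 CPM in siNS libraries of SUM159PT. The groups did not overlap, and siYES1 replicate 4 was the highest. The log2 fold change was 0.58 ± 0.13. In the joint fit of all 16 libraries its value was 0.62 with an adjusted p of 0.0671 in edgeR's quasi-likelihood test, which is not a call. NQO1, a quinone reductase, measured 287, 264, 275 and 289.65 CPM in siYES1 libraries, against 255, 203, 211 and 182 CPM in siNS libraries. Its log2 fold change was 0.39 ± 0.09, and siNS replicate 1 came closest to the siYES1 range.

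GCLC and GCLM, the catalytic and the modifier subunit of glutamate-cysteine ligase, the rate-limiting enzyme of glutathione synthesis, were not called in SUM159PT. GCLC averaged 25.6 ± 0.60 CPM with siYES1 and 24.8 ± 2.71 CPM with siNS, and GCLM 88.4 ± 4.22 CPM with siYES1 and 86.4 ± 4.45 CPM with siNS (SD, n = 4 each). Their log2 fold changes were 0.05 ± 0.11 and 0.03 ± 0.08. Scaling by total counts instead of TMM moved the median of all SUM159PT genes to -0.20 and changed the calls over all genes to 1394 higher and 4173 lower, against 2566 higher and 2755 lower with TMM. With that scaling NFE2L2 (0.11) and NQO1 (0.21) were not called, GCLC and GCLM took negative values (-0.12 and -0.14), and HMOX1, TXNRD1, SRXN1 and NFE2L3 kept their calls (0.74, 0.54, 0.41 and -1.05).

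**Figure D1:**
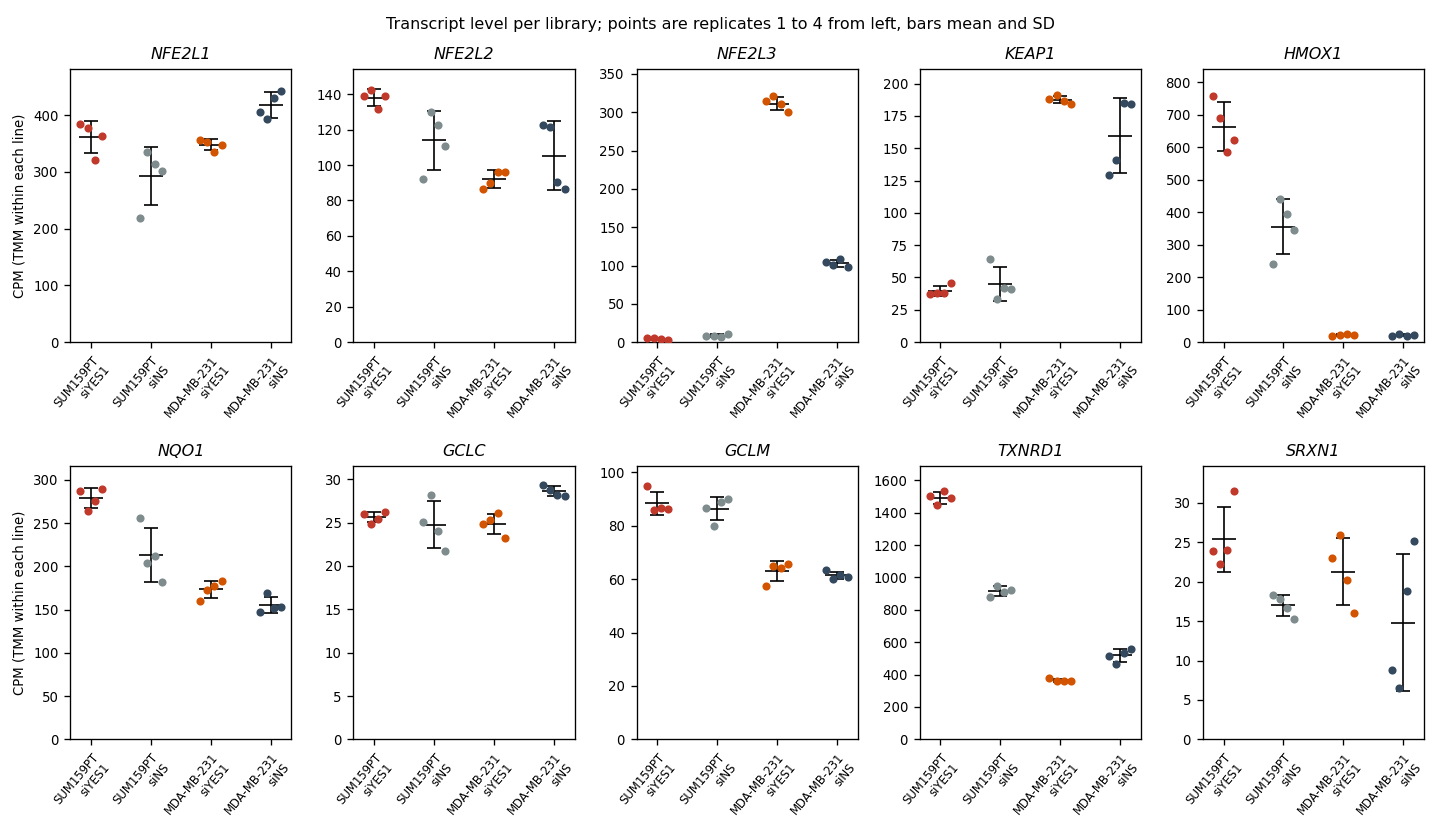
Level of each of the 10 genes (CPM scaled by TMM within each line, linear axis from 0) in each library of the 4 groups. Points are single libraries, the horizontal bar is the mean and the error bar the SD of 4 libraries; NFE2L3 stands at 300.2 to 321 CPM in MDA-MB-231 siYES1 and at 3.26 to 5.78 CPM in SUM159PT siYES1 libraries, and TXNRD1 is higher with siYES1 in SUM159PT and lower with siYES1 in MDA-MB-231.

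In MDA-MB-231, 1 of the 10 genes, NFE2L3, was called higher with siYES1 and 3, TXNRD1, NFE2L1 and GCLC, were called lower. Over all 14319 genes tested, 24.9% were called higher and 27.5% lower. The libraries did not overlap in 4 of the 10 genes, and in 47.1% of all genes. The median log2 fold change was 0.010 over the 10 genes and 0.002 over all genes. Again the choice of genes used this contrast, and nothing is read from the shares.

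NFE2L3 measured 315, 321, 310.2 and 300.2 CPM in the siYES1 libraries of MDA-MB-231, against 105, 101, 109 and 97.6 CPM in the siNS libraries. Every siYES1 library was well above every siNS library, and the log2 fold change was 1.60 ± 0.07. NFE2L1 measured 356, 353, 334 and 347 CPM in siYES1 libraries, against 405, 394, 429 and 443 CPM in siNS libraries. The groups did not overlap, at a log2 fold change of -0.26 ± 0.07. NFE2L2 measured 86.3, 89.7, 96.1 and 96.3 CPM in siYES1 libraries, against 123, 122, 90.6 and 86.5 CPM in siNS libraries. The siNS libraries formed a high pair (replicates 1 and 2) and a low pair (3 and 4) that spanned the siYES1 range. The value of -0.20 ± 0.11 was not called, and without siNS replicate 4 it was -0.28 and was called, while without siNS replicate 1 it was -0.11.

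The same pairs of siNS libraries stood apart in KEAP1 and SRXN1, in the other direction. KEAP1 measured 188, 191, 186 and 184 CPM in siYES1 libraries, against 129, 141, 185 and 184 CPM in siNS libraries of MDA-MB-231. The value of 0.23 ± 0.10 was not called, and was called without siNS replicate 3 (0.31) or replicate 4, with no filter on low counts and in limma-voom. SRXN1 measured 23.02, 25.9, 20.2 and 16.03 CPM in siYES1 libraries, against 8.75, 6.50, 18.8 and 25.1 CPM in siNS libraries. The coefficient of variation of the siNS libraries was 58.9%, the widest of any of the 10 genes in any group. The value of 0.53 ± 0.29 was not called, was 0.92 and called without siNS replicate 4, was called with no filter on low counts (0.54), and was 0.29 without siNS replicate 2. The labels give no batch for these libraries, and the part of this split in the results was not tested.

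TXNRD1 measured 377, 361, 362 and 359 CPM in the siYES1 libraries of MDA-MB-231, against 514, 466, 534 and 560.3 CPM in the siNS libraries. All siYES1 libraries lay below all siNS libraries, at a log2 fold change of -0.51 ± 0.07. GCLC measured 24.8, 25.3, 26.1 and 23.2 CPM in siYES1 libraries, against 29.4, 28.8, 28.2 and 28.1 CPM in siNS libraries. The groups did not overlap and the log2 fold change was -0.20 ± 0.08. In edgeR's test this call ended with any 1 of the 8 libraries left out (adjusted p from 0.0534 to 0.146), with RLE scaling and with no filter on low counts, and DESeq2 did not make it.

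HMOX1 was low in MDA-MB-231 with either siRNA. It measured 19.4, 21.5, 23.6 and 22.9 CPM in siYES1 libraries, against 20.4, 24.9, 20.3 and 22.9 CPM in siNS libraries. The ranges lay nearly on top of each other, at a log2 fold change of -0.02 ± 0.10. NQO1 averaged 173 ± 9.58 CPM with siYES1 and 155 ± 9.68 CPM with siNS, and GCLM 63.0 ± 3.69 CPM with siYES1 and 61.4 ± 1.39 CPM with siNS (SD, n = 4 each). The values of 0.16 ± 0.07 for NQO1 and 0.04 ± 0.07 for GCLM were not called. NQO1 was called when siNS replicate 2, its highest siNS library, was left out (0.20), and by DESeq2 (0.17).

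The difference between the lines was the log2 change with siYES1 in SUM159PT minus that in MDA-MB-231, from the joint fit of all 16 libraries. Of the 10 genes, 4 were called higher in SUM159PT, TXNRD1, HMOX1, NFE2L1 and NFE2L2, and 1, NFE2L3, was called lower. Over all 16299 genes tested, 15.4% were called higher and 8.85% lower, and nothing is read from the shares because the choice of genes used this contrast too. The median difference was 0.34 over the 10 genes and 0.03 over all genes.

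The most negative difference was that of NFE2L3, at -2.38 ± 0.19, with a called decrease in SUM159PT and a called increase in MDA-MB-231. TXNRD1 stood at the other end, at 1.31 ± 0.09, called higher in SUM159PT and lower in MDA-MB-231. HMOX1 differed by 1.02 ± 0.19, with a called increase in SUM159PT and no call in MDA-MB-231. NFE2L1 differed by 0.67 ± 0.14 and NFE2L2 by 0.57 ± 0.16, each with a positive value in SUM159PT and a negative value in MDA-MB-231. Without SUM159PT siNS replicate 1 these 5 calls stood, with NFE2L1 at 0.49, NFE2L2 at 0.42 and HMOX1 at 0.81.

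The other 5 genes were not called in the difference. KEAP1 stood at -0.31 ± 0.20, NQO1 at 0.33 ± 0.12, GCLC at 0.35 ± 0.14, GCLM at 0.09 ± 0.11 and SRXN1 at 0.15 ± 0.38. limma-voom called NQO1 (0.34) and GCLC (0.36), and edgeR called NQO1 without SUM159PT siNS replicate 1 and GCLC without SUM159PT siNS replicate 2. An uncalled difference does not show that the lines acted alike, and the SE of SRXN1 is the widest of the 10. Scaling by total counts moved the median difference of all genes to -0.189 and the calls to 1375 higher and 2795 lower, against 2511 higher and 1442 lower with TMM. With it the call of NFE2L2 ended (0.35, adjusted p = 0.0888 in edgeR's quasi-likelihood test), and the calls of the other 4 genes stood.

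**Figure D2:**
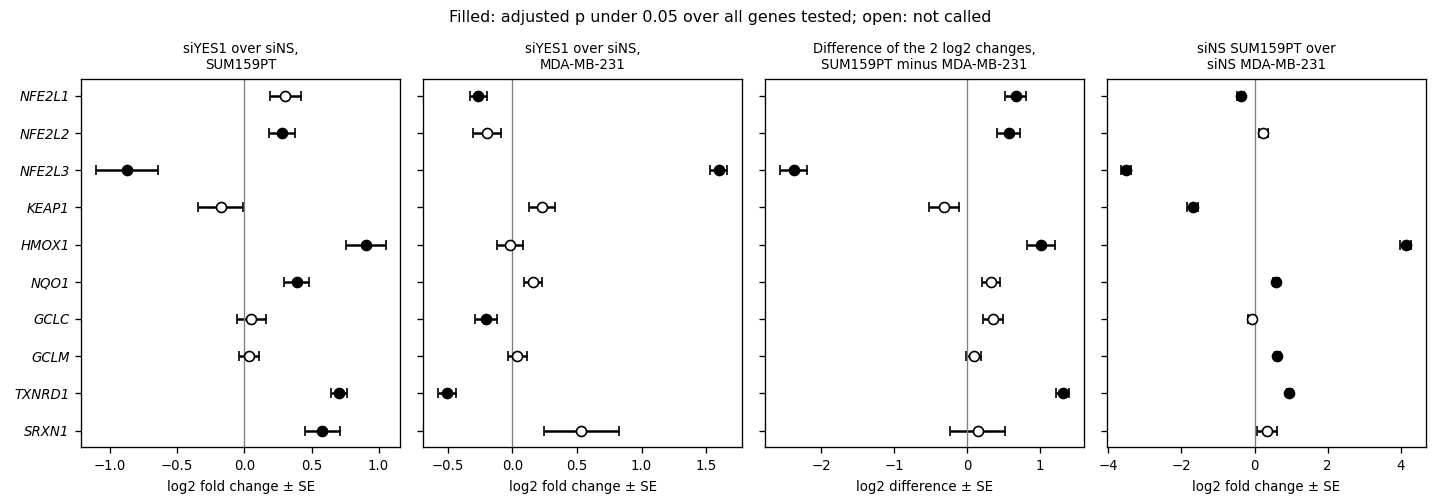
Log2 value ± SE of each of the 10 genes in the 4 comparisons: siYES1 over siNS in SUM159PT and in MDA-MB-231, the difference of the log2 changes, and siNS SUM159PT over siNS MDA-MB-231. Filled points were called at an adjusted p under 0.05 over all genes tested and open points were not; NFE2L3 and TXNRD1 lie on opposite sides of 0 in the first and the second panel, and HMOX1 (4.13) and NFE2L3 (-3.50) lie farthest apart in the last.

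The lines were also compared with siNS alone, a contrast that the choice of genes did not use. Both count tables were scaled together for it, so its CPM differ slightly from those above, and line cannot be told apart from whatever else differed between the 2 tables. Of the 10 genes, HMOX1, TXNRD1, GCLM and NQO1 were higher in SUM159PT, NFE2L3, KEAP1 and NFE2L1 were lower, and 3 were not called. Over all 16299 genes tested, 38.0% were called higher and 39.0% lower, so that most genes differed between the lines, and the 7 of 10 called here are near that share.

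HMOX1 measured 253, 463, 412 and 359.6 CPM in SUM159PT siNS libraries, against 19.7, 23.7, 19.3 and 22.0 CPM in MDA-MB-231 siNS libraries. Each SUM159PT library was more than 10 times as high as each MDA-MB-231 library, and the log2 fold change was 4.13 ± 0.15 (adjusted p = 8.03e-17, edgeR quasi-likelihood test here and below). NFE2L3 measured 7.97, 8.29, 7.06 and 11.5 CPM in SUM159PT, against 101, 96.1, 103 and 93.8 CPM in MDA-MB-231. It was lower in 4 of 4 SUM159PT libraries, at -3.50 ± 0.14 (adjusted p = 2.74e-16).

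KEAP1 measured 67.2, 35.2, 44.0 and 42.8 CPM in SUM159PT siNS libraries, against 125, 134, 176 and 177 CPM in MDA-MB-231 siNS libraries. The highest SUM159PT library was below the lowest MDA-MB-231 library, at a log2 fold change of -1.69 ± 0.15 (adjusted p = 5.73e-10). TXNRD1 averaged 959 ± 32.7 CPM in SUM159PT and 497 ± 39.6 CPM in MDA-MB-231 (SD, n = 4 each), a log2 fold change of 0.95 ± 0.07 (adjusted p = 9.81e-12). GCLM averaged 90.5 ± 4.41 CPM in SUM159PT and 58.8 ± 1.76 CPM in MDA-MB-231, a log2 fold change of 0.62 ± 0.07 (adjusted p = 1.01e-07). The ranges of both genes were separate between the lines.

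NQO1 was higher in SUM159PT by 0.59 ± 0.09 (adjusted p = 2.29e-06) and NFE2L1 was lower, at -0.38 ± 0.10 (adjusted p = 0.00133). Without SUM159PT siNS replicate 1 the value of NFE2L1 was -0.24, still called. NFE2L2 averaged 119 ± 17.5 CPM in SUM159PT and 101 ± 18.9 CPM in MDA-MB-231 (SD, n = 4 each). The libraries overlapped, and the value of 0.24 ± 0.11 was not called (adjusted p = 0.0551), though it was called without any 1 of 3 libraries (SUM159PT siNS replicate 1, or MDA-MB-231 siNS replicate 1 or 2), in limma-voom and with a filter at a mean of 1 CPM. GCLC (-0.08 ± 0.10, adjusted p = 0.453) and SRXN1 (0.33 ± 0.27, adjusted p = 0.266) were not called, and SRXN1 was 0.72 and called without MDA-MB-231 siNS replicate 4.

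Levels of different genes can be compared only per length, and CPM was therefore divided by the kilobases of exon union. That union holds the exons of all annotated transcripts, expressed or not, so the order of genes is approximate. In SUM159PT siYES1 libraries HMOX1 (276 CPM per kb) and TXNRD1 (223) led, followed by NQO1 (85.7), NFE2L1 (62.1), NFE2L2 (23.1), GCLM (16.3), KEAP1 (10.6), SRXN1 (9.41), GCLC (2.97) and NFE2L3 (1.07). Of these, only the ranges of KEAP1 and SRXN1 overlapped between neighbours. In SUM159PT siNS libraries the order was the same, from HMOX1 (147) and TXNRD1 (136) to GCLC (2.86) and NFE2L3 (1.95), and more neighbours overlapped: HMOX1 with TXNRD1, NQO1 with NFE2L1, NFE2L2 with GCLM, GCLM with KEAP1 and GCLC with NFE2L3. In MDA-MB-231 siYES1 libraries NFE2L3 led (73.3 CPM per kb), above NFE2L1 (59.7), then TXNRD1 (54.4), NQO1 (53.3) and KEAP1 (49.9), NFE2L2 (15.4), GCLM (11.6), HMOX1 (9.08), SRXN1 (7.89) and GCLC (2.87). TXNRD1 and NQO1, NQO1 and KEAP1, and HMOX1 and SRXN1 overlapped with their neighbour. In MDA-MB-231 siNS libraries TXNRD1 (77.3) and NFE2L1 (71.7) led with overlapping ranges, and NFE2L3 (24.2) came after NQO1 (47.7) and KEAP1 (42.5), which overlapped. HMOX1 (9.20), SRXN1 (5.48) and GCLC (3.31) closed that order, and the range of SRXN1 (2.41 to 9.32) overlapped those of both HMOX1 and GCLC (3.25 to 3.40), so the last place there is not clear.

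The protein-coding genes whose pattern lay nearest to that of NFE2L2 were CWC27, TAX1BP1 and MBD2. The measure was the root mean square difference of log2 CPM, centred on each line's mean, over the 16 libraries, and it was 0.0559, 0.0722 and 0.0827 for the 3 genes, against a median of 0.288 over the 9404 genes compared. The libraries of a line share their scaling, and the likeness is a description.

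Other genes of these pathways were followed as 9 lists, also chosen with earlier results of these data known. Their counts stand beside shares over all genes tested of 17.7% risen and 19.0% fallen in SUM159PT, and 24.9% risen and 27.5% fallen in MDA-MB-231. Of 10 partners and controllers of NRF2 (small MAF proteins, BACH1, the CUL3 ligase, SQSTM1, BTRC, GSK3B and ATF4), 6 rose with siYES1 in SUM159PT and the other 4 were not called, at a median log2 fold change of 0.44. The MDA-MB-231 count was 4 risen and 1 fallen (median 0.117). SQSTM1 (p62), which sequesters KEAP1, measured 1645, 1628, 1477 and 1452 CPM in siYES1 libraries, against 508, 889, 775 and 755 CPM in siNS libraries of SUM159PT. It rose by 1.08 ± 0.13 (log2) there and by 0.36 ± 0.07 in MDA-MB-231, and its exons overlap MGAT4B and MRNIP. MAFG and MAFK, DNA-binding partners of NRF2, rose by 0.75 ± 0.13 and 0.74 ± 0.12 in SUM159PT. BACH1, the repressor at AREs, rose by 0.65 ± 0.18 in SUM159PT and by 0.40 ± 0.09 in MDA-MB-231, and GSK3B, a kinase that marks NRF2 for KEAP1-independent turnover, fell by 0.50 (log2) in MDA-MB-231. Exons of MAFG overlap SIRT7. In SUM159PT siNS replicate 1 had the lowest level of SQSTM1, MAFG, MAFK and BACH1 in its group, and without it the count was 6 risen and 1 fallen (median 0.317).

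Of 15 genes of glutathione supply and use, 13 were tested in SUM159PT, where 6 rose and 1 fell (median 0.291), and 14 in MDA-MB-231, where 5 rose and 3 fell (median 0.077), beside the same shares over all genes. SLC7A11, the cystine importer, averaged 187 ± 9.35 CPM with siYES1 and 88.9 ± 22.8 CPM with siNS in SUM159PT, and 32.7 ± 2.53 CPM with siYES1 and 22.8 ± 3.46 CPM with siNS in MDA-MB-231 (SD, n = 4 each). It rose in both lines, by 1.07 ± 0.14 in SUM159PT and by 0.52 ± 0.11 in MDA-MB-231. Its partner chain SLC3A2 (0.62) and the glutathione transferase GSTO1 (0.69) rose in SUM159PT, while in MDA-MB-231 GSTA4 rose (0.68) and MGST1 fell (-0.51). Of the 13 genes of the thioredoxin and peroxiredoxin system, 6 rose and 2 fell in SUM159PT (median 0.197). In MDA-MB-231, 4 rose and 4 fell (median -0.082), beside the same shares over all genes. Thioredoxin itself, TXN, rose by 0.86 ± 0.11 in SUM159PT and by 0.72 ± 0.09 in MDA-MB-231, and the mitochondrial peroxiredoxin PRDX3 rose by 0.85 ± 0.09 in SUM159PT and by 0.74 ± 0.08 in MDA-MB-231. Both have pseudogenes (7 and 4 by name) that may share their reads. TXNIP, the thioredoxin inhibitor, rose by 1.35 ± 0.27 in SUM159PT, where siNS replicate 1 stood at 208 CPM, far below the other siNS libraries at 652 to 695 CPM and the siYES1 libraries at 1389 to 1443 CPM.

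Of 19 quinone, carbonyl and xenobiotic enzymes and exporters, 17 were tested in SUM159PT, where 5 rose and 2 fell (median 0.117), and 19 in MDA-MB-231, where 2 rose and 10 fell (median -0.245). Over all genes the shares were 17.7% risen and 19.0% fallen in SUM159PT, and 24.9% risen and 27.5% fallen in MDA-MB-231. OSGIN1, a growth regulator induced by oxidative stress, rose by 0.92 ± 0.16 in SUM159PT and by 0.29 ± 0.09 in MDA-MB-231. In MDA-MB-231, PIR, an iron-binding nuclear protein, rose to 13.3 ± 1.03 CPM with siYES1, against 4.80 ± 0.70 CPM with siNS, and the exporter ABCC3 fell to 56.1 ± 2.93 CPM with siYES1, against 116 ± 8.05 CPM with siNS (SD, n = 4 each). PIR also rose in SUM159PT, by 0.53 ± 0.11. AKR1C1 rose by 0.56 in SUM159PT and fell by 0.86 (log2) in MDA-MB-231, while AKR1C2 fell by 0.67 in SUM159PT; these near-identical paralogs can trade reads and are uncertain. Of 8 NADPH-supplying enzymes, 5 rose and 2 fell in SUM159PT (median 0.244), with 3 to 5 risen when a library was left out. In SUM159PT the pentose phosphate enzyme TKT (0.41, and 0.27 without siNS replicate 1) rose and IDH2, the mitochondrial isocitrate dehydrogenase, fell (-0.43). In MDA-MB-231, 1 rose and 3 fell (median -0.005), the fallen being PGLS (-0.77), IDH1 (-0.49) and IDH2 (-0.48).

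Of 13 genes of heme and iron handling, 11 were tested in SUM159PT, where 3 rose and 3 fell (median 0.033, and -0.048 without siNS replicate 1), and 12 in MDA-MB-231, where 4 rose and 3 fell (median 0.145). These counts lie near the shares over all genes (17.7% risen and 19.0% fallen in SUM159PT, 24.9% risen and 27.5% fallen in MDA-MB-231). FTL, the ferritin light chain, averaged 6646 ± 441 CPM with siYES1 and 2319 ± 600.5 CPM with siNS in SUM159PT, and 2655 ± 223 CPM with siYES1 and 1652 ± 311 CPM with siNS in MDA-MB-231 (SD, n = 4 each). It rose by 1.52 ± 0.15 in SUM159PT and by 0.68 ± 0.11 in MDA-MB-231, with 16 pseudogenes by name that may share its reads. BLVRB, which acts after HMOX1 in heme breakdown, rose by 0.52 ± 0.12 in SUM159PT and by 0.53 ± 0.11 in MDA-MB-231, and SLC40A1, the iron exporter, fell by 0.93 (log2) in MDA-MB-231. A decrease was called for between 0 and 3 of the SUM159PT heme and iron genes when a library was left out. Of the 3 genes SOD1, SOD2 and CAT, 2 rose in SUM159PT, and 1 rose and 2 fell in MDA-MB-231. SOD2, the mitochondrial superoxide dismutase, rose by 0.43 in SUM159PT and fell by 0.72 (log2) in MDA-MB-231. Its symbol belongs to 2 genes of the annotation, its exons overlap WTAP, and reads may be split.

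Proteasome subunit genes are the textbook targets of NRF1. Of 31, 13 rose and 1 fell with siYES1 in SUM159PT (median 0.207), and 25 rose in MDA-MB-231, where 6 were not called (median 0.408). Over all genes, 17.7% rose and 19.0% fell in SUM159PT, and 24.9% rose and 27.5% fell in MDA-MB-231. With 1 library left out, 6 to 17 rose in SUM159PT (6 without siNS replicate 3 or 4 or siYES1 replicate 1) and 23 to 27 in MDA-MB-231. PSMB3, a subunit of the β ring, averaged 99.4 ± 4.88 CPM with siYES1 and 69.3 ± 5.37 CPM with siNS in SUM159PT, and 224 ± 11.9 CPM with siYES1 and 147 ± 21.3 CPM with siNS in MDA-MB-231 (SD, n = 4 each). NFE2L1 mRNA was called lower in MDA-MB-231 (-0.26) and was not called in SUM159PT. Its part in the changes of the proteasome genes was not tested. Scaled by total counts, the subunits counted 1 risen and 2 fallen in SUM159PT (median 0.035), and 23 risen and 1 fallen in MDA-MB-231 (median 0.361). Among 6 genes that process NRF1, 2 rose in SUM159PT, the retrotranslocation ligase SYVN1 (0.50, and 0.33 without siNS replicate 1) and the protease DDI2 (0.38), and with total counts neither was called and 1 other gene of the list fell. In MDA-MB-231, 2 rose and 1 fell, the fallen being VCP (-0.28), the ATPase that extracts NRF1 from the membrane. Exons of SYVN1 overlap FAU, MIR6751 and MRPL49, those of DDI2 overlap RSC1A1, and reads of these overlaps cannot be told apart.

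With total counts as the scaling, which lowered the median of all SUM159PT genes to -0.20, several lists of that line changed their balance. The quinone and xenobiotic genes then counted 5 risen and 6 fallen (median -0.056), the heme and iron genes 2 risen and 4 fallen (-0.134), and the thioredoxin genes 3 risen and 4 fallen (0.029). The NADPH genes counted 1 risen and 2 fallen (0.074), the glutathione genes 4 risen and 2 fallen (0.124), and the NRF2 partners 5 risen and 1 fallen (0.281). TKT, SYVN1 and DDI2 lost their calls with it.

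Between the lines, the difference was called higher in SUM159PT for 4 of 10 NRF2 partners and 5 of 8 NADPH genes, with no other call in either list. It was called higher for 6 and lower for 1 of 14 glutathione genes, higher for 10 and lower for 1 of 19 quinone and xenobiotic genes, and higher for 1 and lower for 4 of 31 proteasome genes. Over all genes, 15.4% were called higher and 8.85% lower. The median was 0.357 for the NRF2 partners, 0.42 for the NADPH genes, 0.451 for the glutathione genes, 0.41 for the quinone and xenobiotic genes and -0.154 for the proteasome genes, beside 0.03 over all genes. With 1 library left out, the median of the NRF2 partners ranged from 0.143 (without SUM159PT siNS replicate 1) to 0.53 with 2 to 6 genes called higher, and 0 to 5 proteasome genes were called lower. With total counts as the scaling, 1 of the 10 NRF2 partners was called higher, and 13 of the 31 proteasome genes were called lower. In siNS libraries alone, 27 of 31 proteasome genes were lower and 1 higher in SUM159PT than in MDA-MB-231, with a median of -0.711, beside -0.03 over all genes, of which 39.0% were lower and 38.0% higher.

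**Figure D3:**
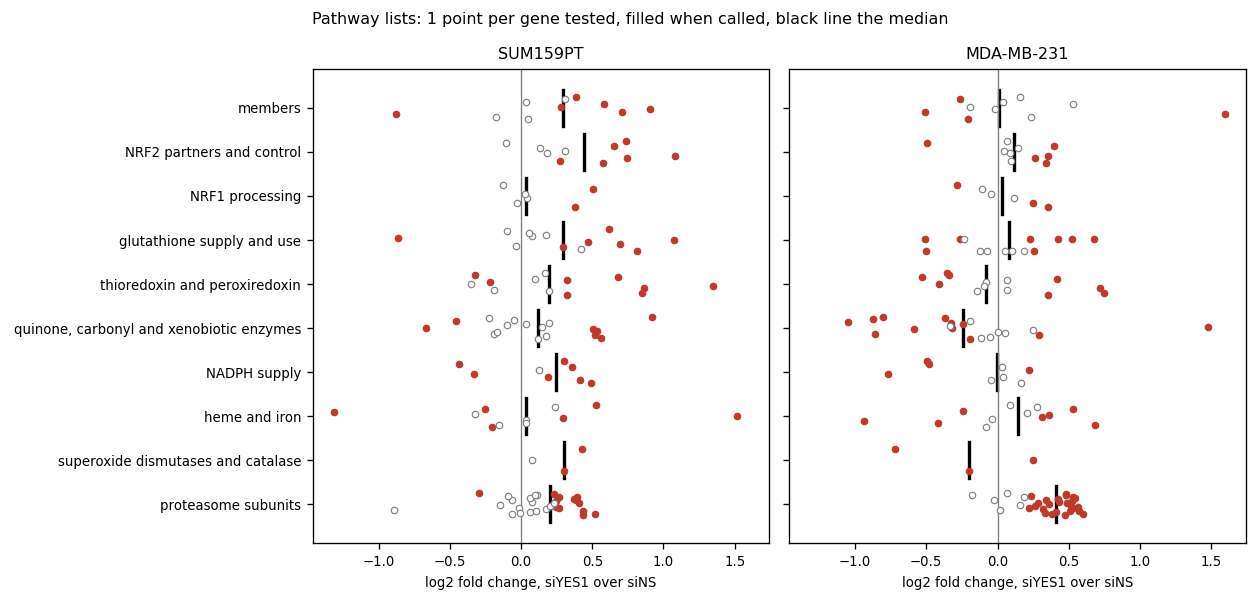
Log2 fold change (siYES1 over siNS) of every tested gene of the 10 genes and of 9 pathway lists, in SUM159PT and in MDA-MB-231. Each point is a gene, filled when called, and the black line is the list's median; the proteasome median is 0.207 in SUM159PT and 0.408 in MDA-MB-231, and the median of the quinone, carbonyl and xenobiotic list is 0.117 in SUM159PT and -0.245 in MDA-MB-231.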

How the data were processed

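Raw counts per gene were deposited by the authors in 1 table per line; the submitters' processing notes name HISAT2 2.0.5, featureCounts 1.5.0-p3 and the build hg38. The annotation release and the strand setting were not found in the labels or files. All 58735 gene IDs were found in GENCODE 29, from which symbols and coordinates were taken. The columns of the SUM159PT table carry another prefix (S149) and were taken as SUM159PT by the labels. The members and the gene lists were chosen with earlier results of these data known.

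Counts were scaled by TMM, filtered with filterByExpr and tested with edgeR 4.0.16 (quasi-likelihood, R 4.3.3) in each line's 8 libraries, with Benjamini-Hochberg adjustment over all genes and a call at an adjusted p under 0.05. The difference between lines and the comparison of siNS libraries came from 1 fit of all 16 libraries with line, siRNA and their product. SE is that of the log2 fold change. The 10 genes were named in every comparison, and from each list and line up to 3 called genes with the largest change, at a mean of 5 CPM or more and with non-overlapping libraries; BACH1 in SUM159PT was added after its values were seen, and 1 gene that the rule names is not reported here. Alternatives were other scalings, filters, DESeq2 1.42.0, limma-voom (limma 3.58.1), a replicate block, other fits and each library left out. Steps were tested on simulated data. Libraries of a group differed by more than the sampling noise of counts. All were counted separately, which does not make these technical replicates independent experiments. Counts limit the precision of genes at few reads, such as NFE2L3 in SUM159PT.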

Additional observations from a re-analysis of the deposited data

Results flagged for a closer look

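In the groups of 4 libraries, 14 of 204 values tested had 1 library apart from the other 3, and chance gives about 1 in 20. Among the 10 genes these were KEAP1 in SUM159PT siYES1 replicate 4 (45.73 CPM, the others 37.45 to 38.21), GCLM in SUM159PT siYES1 replicate 1 (94.69 CPM, the others 85.93 to 86.64), GCLM in MDA-MB-231 siYES1 replicate 1 (57.56 CPM, the others 64.29 to 65.48) and TXNRD1 in the same library (377.5 CPM, the others 359.3 to 362.1). In SUM159PT siNS replicate 1 stood apart in VCP (333.3 CPM), PRDX3 (136.3 CPM) and TXNIP (207.9 CPM), and siNS replicate 2 in FAF2 (93.53 CPM). In MDA-MB-231 siYES1 replicate 4 stood apart in GSK3B (37.34 CPM) and IDH2 (17.71 CPM), siYES1 replicate 2 in SLC7A11 (36.46 CPM), siYES1 replicate 3 in CAT (68.35 CPM), siNS replicate 2 in AKR1C1 (10.36 CPM) and siNS replicate 1 in SOD1 (142.4 CPM).

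The change with siYES1 differed between the lines (edgeR interaction, adjusted p under 0.05, SUM159PT minus MDA-MB-231, log2) for YES1 itself (-0.66) and, among the 10 genes, for NFE2L1 (0.67), NFE2L2 (0.57), NFE2L3 (-2.38), HMOX1 (1.02) and TXNRD1 (1.31). It was higher in SUM159PT for the NRF2 partners SQSTM1 (0.82), MAFK (0.77), MAFG (0.58) and GSK3B (0.49) and for SYVN1 (0.71). The same held for SLC7A11 (0.65), SLC3A2 (0.62), GSTO1 (0.56) and MGST1 (1.08), for TXNIP (1.54) and SESN2 (1.31), and for AKR1C1 (1.51), ABCC3 (1.10) and OSGIN1 (0.72). It held too for IDH1 (0.89), TKT (0.55), PGLS (0.54), FTL (0.93), SOD2 (1.25) and CAT (0.59). It was lower in SUM159PT for GSTA4 (-0.52), PIR (-0.85), SLC48A1 (-0.43) and PSMC1 (-0.37).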

How the results depend on the processing

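Of 800 values of the 10 genes under alternatives, 738 kept direction and call, and 19 of 40 results did so under every alternative run. Over all genes, total counts as the scaling gave 1394 risen and 4173 fallen in SUM159PT (main values 2566 and 2755) and 1375 higher and 2795 lower in the difference (2511 and 1442), and the joint fit gave 2230 risen in MDA-MB-231 (3570). Among the 10 genes, 3 were called risen in SUM159PT with total counts (main 5), and in MDA-MB-231 (main 1) DESeq2, limma-voom and the replicate block each called 2 and no filter on low counts called 3, with 1 to 3 when a library was left out. Signs turned for genes that were not called. With total counts, GCLC (-0.12) and GCLM (-0.14) did so in SUM159PT, GCLM in MDA-MB-231 (-0.0075), and GCLM (-0.13) and SRXN1 (-0.075) in the difference. The joint fit turned GCLM in MDA-MB-231 (-0.016), TMM within each line GCLM in the difference (-0.011), and limma-voom SRXN1 in the difference (-0.057). With a library left out, GCLC in SUM159PT ranged from -0.0052 to 0.12, KEAP1 in SUM159PT from -0.29 to 0.030, HMOX1 in MDA-MB-231 from -0.056 to 0.041, and SRXN1 in the difference from -0.24 to 0.40. The cause was not tested.

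Deviations of same-numbered siYES1 and siNS libraries correlated at -0.139 to 0.101, so no strong shared deviation by number was seen. These values cannot show how the samples were numbered or prepared. With the replicate block, MDA-MB-231 GCLC was not called (-0.21, adjusted p = 0.0885 in edgeR) and KEAP1 was (0.25, adjusted p = 0.0475), and no other call of the 10 genes changed in any comparison.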
